A study of Mus musculus with 32 samples.

Results

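Endothelial cells are the cells that line blood vessels, and they were rare in osteogenic cultures of marrow stromal cells (BMSC-OBs). A cell was counted as endothelial if at least 3 of 6 genes (*Cdh5*, *Emcn*, *Pecam1*, *Cldn5*, *Egfl7* and *Kdr*) had a unique molecular identifier (UMI, 1 captured transcript), if *Cdh5* or *Emcn* was among them, and if *Csf1r*, a receptor of macrophages, had none. The rule found 87 endothelial cells among 90924 kept cells (0.0957%). The cells came from marrow of Diversity Outbred (DO) mice, an outbred population descended from inbred founder strains, and the labels name no other genotype or treatment. BMSCs were grown in osteogenic medium until they mineralized, released with EDTA, collagenase and trypsin, and mixed so that each of 16 pools held cells of 4 or 5 mice (77 mice in all) before droplet-based 3' single-cell RNA-seq (scRNA-seq), and each pool was sequenced in 2 runs (32 samples). The first run was used here, with 53990642 to 100777353 UMIs per pool. Other *Tyrobp*-negative cells were shallow in pools 1, 13 and 18, with medians of 2380, 2662 and 5563 UMIs, against 10015 to 17332 in the other pools. The labels do not tie cells to mice or place pools in groups, so pools were not compared as groups, and only single units far from the rest were looked for.

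Vessels of bone marrow are arteries, arterioles, a capillary type rich in endomucin near growing bone, and wide, leaky sinusoids. New vessels sprout under a tip cell that responds to VEGF through its receptors, while Notch signaling from the tip cell keeps the cells behind it as a stalk. Endothelial cells are held together by VE-cadherin (*Cdh5*) and claudin 5 (*Cldn5*), rest on a basement membrane of type IV collagen and laminin, and depend on ETS, SOX and KLF transcription factors for their identity.

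The 6 genes of the rule describe the members and are given without a test. *Emcn*, which encodes endomucin, had a UMI in 84 of the 87 cells. *Cdh5*, *Pecam1* (the adhesion molecule CD31) and *Egfl7* (a secreted vessel matrix protein) each had a UMI in 82 cells, *Cldn5* in 53 and *Kdr* (VEGF receptor 2) in 52. All 6 genes were found together in 31 cells, 5 in 34, 4 in 13 and 3 in 9. In CPM (UMIs of a gene per 1000000 UMIs, after scaling), the level of *Cdh5* was 769 in the endothelial cells of pool 9, 660 in pool 10, 664 in pool 18 and 722 in the 13 other pools summed, and it was between 0.159 and 1.46 in the comparison cells of the same units. *Cldn5* was less even, with levels of 226, 233, 102 and 229 CPM in the same order. Among the 63460 other cells without *Tyrobp* (an adaptor of myeloid cells), *Cdh5* had a UMI in 0.121% and *Emcn* in 0.301%, but *Pecam1* in 8.04% and *Egfl7* in 5.92%. In *Tyrobp*-positive cells (27377 cells), *Pecam1* had a UMI in 4.24% and *Egfl7* in 3.44%. The median depth was 15915 UMIs in the endothelial cells, 11610.5 in the other *Tyrobp*-negative cells and 5530 in the *Tyrobp*-positive cells. *Cdh5* lies on chromosome 8 (104101625 to 104144511, GRCm38), *Emcn* on chromosome 3 (137341067 to 137432185), *Pecam1* on chromosome 11 (106654217 to 106750628), *Cldn5* on chromosome 16 (18776847 to 18778262), *Egfl7* on chromosome 2 (26580014 to 26593120) and *Kdr* on chromosome 5 (75932827 to 75978458).

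The label was checked against 37 further endothelial genes that the rule did not use. An endothelial cell had a UMI of a median of 22 of them (range 3 to 33), against a median of 2 in the other *Tyrobp*-negative cells and 1 in the *Tyrobp*-positive cells, and 77 of the 87 cells had at least 10. The number followed the number of rule genes: the median was 6 in the cells with 3 rule genes, 18 with 4, 24 with 5 and 26 with 6. Cells just outside the rule had few of these genes, with a median of 3 in the 53 cells with 2 rule genes, *Cdh5* or *Emcn* among them, and 6 in the 6 cells with 3 rule genes but neither *Cdh5* nor *Emcn*. Another 9 cells met the rule but for a *Csf1r* UMI; their median was 26 of the 37 genes, and none of them had a *Tyrobp* UMI, so they stayed among the other *Tyrobp*-negative cells in the comparisons. Of 54671 *Tyrobp*-negative cells with none of the 6 rule genes, 7 had at least 10 of the 37 genes.

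**Figure D1:**
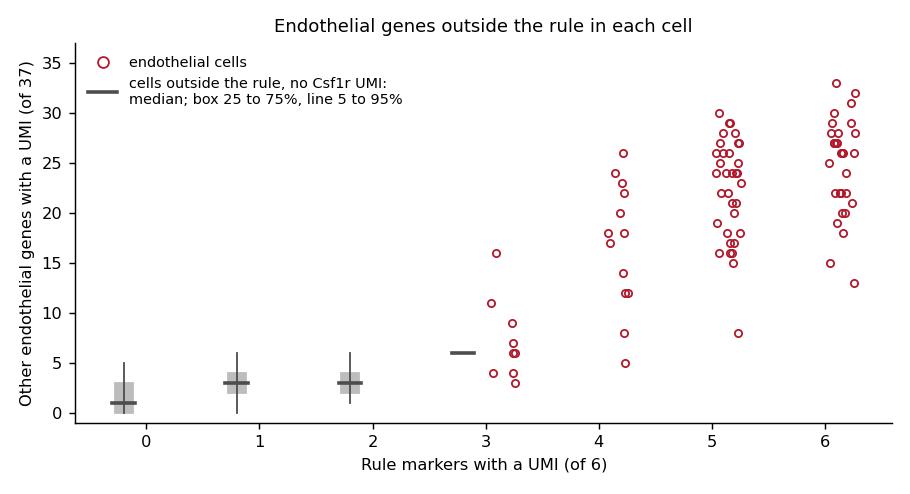
Number of the 37 endothelial genes outside the rule that had a UMI in a cell (y axis) against the number of the 6 rule genes with a UMI (x axis), for each of the 87 endothelial cells (circles, spread sideways) and for kept cells outside the rule without a *Csf1r* UMI (gray: median, with the 25 to 75% box and the 5 to 95% line where at least 20 cells were in the class). The endothelial cells with 4 or more rule genes mostly lie above 10, and the 9 with 3 rule genes range from 3 to 16.

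Endothelial cells were found in 15 of the 16 pools, and 47 of the 87 (54.0%) were in pools 9, 10 and 18. Pool 9 held 16 endothelial cells (0.283% of its kept cells, 95% exact Clopper-Pearson interval 0.162 to 0.459%), pool 10 held 16 (0.324%, 0.185 to 0.525%) and pool 18 held 15 (0.197%, 0.111 to 0.325%). Pool 13 held 9, pool 12 held 8, and 11 pools held 4 or fewer. Pool 3 held 0 of 5004 cells, which allows a share of up to 0.06% by a limit of 3 counts and up to 0.0737% by the exact interval. The share was 0.0953% ± 0.0970 (SD, n = 16 pools), so the SD was as large as the mean. These intervals cover counting error only, since cells of 1 mouse are not independent of each other. The second run, a second sequencing of the same droplets, gave 92 endothelial cells, 77 of them with the same pool and barcode. The barcode sequence of 4 members also occurred in another pool, and 1521 of 106313 barcode sequences did so in all.

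**Figure D2:**
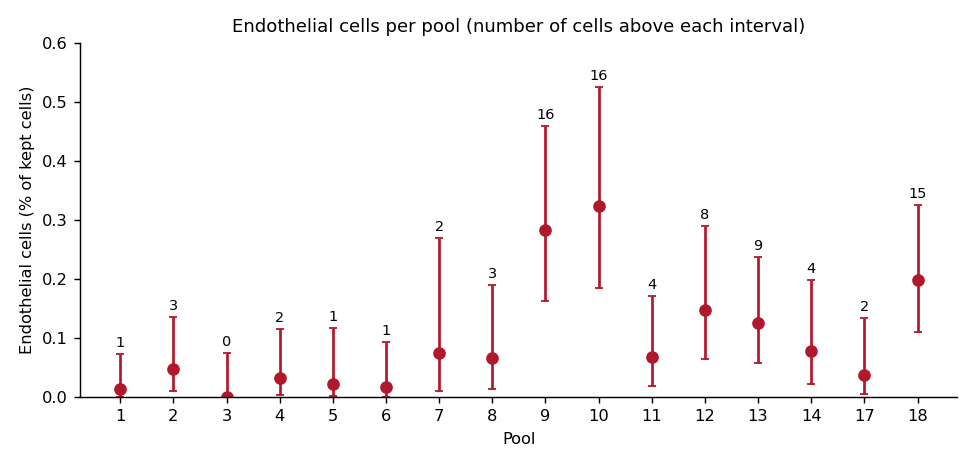
Endothelial cells as a percent of the kept cells of each pool (y axis) in the 16 pools (x axis); points are shares, bars are 95% exact binomial intervals, and the number of endothelial cells stands above each bar. Pools 9, 10 and 18 have the highest shares, and pool 3 has none.

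For tests of expression, counts were summed over the endothelial cells of pools 9, 10 and 18 and of the 13 other pools together (40 cells), which gave 4 units, and each sum was set against the sum of the other *Tyrobp*-negative cells of the same unit. Of these comparison cells, 98.9% had a *Col1a1* UMI. Of 13381 genes tested outside the rule, 1295 (9.68%) were higher and 2021 (15.1%) were lower in the endothelial cells (edgeR quasi-likelihood test, adjusted p at most 0.05). The median log2 fold change over all tested genes was -0.17. Scaling by library size alone raised that median by 0.32 and gave 2222 higher and 1293 lower genes, so that 63.2% of the calls were higher in place of 39.1%. Without the summed pools 759 genes were higher and 1349 lower. Since cells were chosen by the counts of 6 endothelial genes, the folds of other endothelial genes describe cells picked for endothelial transcripts. A gene could also enter the test through 1 group alone. Genes near 0 in every comparison unit were tested only where all 4 endothelial units held them, and could then hardly be called lower. *Tal1*, at 0 in the endothelial cells of pool 18, was not tested. Counts of higher genes among those tested, and the largest rises, are partly set by this filter. Against *Tyrobp*-positive cells 1217 of 11736 genes (10.4%) were higher and 1930 (16.4%) were lower. This fell to 640 and 1085 without the summed pools, and library size alone gave 1848 higher genes.

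Of the 36 tested endothelial identity genes outside the rule, 34 were higher than in the other *Tyrobp*-negative cells and 2 were lower (all tested genes: 9.68% and 15.1%), with a median log2 fold change of 5.61. Some of them, such as *Tie1*, *Tek* and *Robo4*, entered the test only through the endothelial units. *Esam*, an adhesion molecule of endothelial junctions, had a UMI in 79 of 87 cells. Its level was 557 CPM in pool 9, 296 in pool 10, 312 in pool 18 and 402 in the other pools, and 0.322 to 0.845 in the comparison cells (log2 fold change 9.59 ± 0.33 SE, edgeR adjusted p = 1.41e-15). *Myct1*, a membrane protein of endothelium, was at 359, 240, 178 and 495 CPM against 0.171 to 0.907 (log2 fold change 9.81 ± 0.48). *Robo4*, a guidance receptor of vessels, was at 103, 88.7, 93.5 and 91.6 against 0.0285 to 0.309 (log2 fold change 10.45 ± 0.47). In all 3 genes the lowest endothelial unit was far above the highest comparison unit. The angiopoietin receptors *Tie1* and *Tek*, the scaffold *Rasip1*, *Icam2*, *Mmrn2*, the phosphatase *Ptprb* (VE-PTP) and *Cd34* rose by log2 fold changes between 7.51 and 9.73. Among the identity genes called higher the smallest rises were *Crip2* (1.15 ± 0.21), which the comparison cells held at 266 CPM, and *Tspan18* (1.39 ± 0.35, adjusted p = 0.16 without pool 9). *Abi3bp* and *Slco2a1*, a matrix protein and a prostaglandin transporter, had 2 and 1 UMIs in all members and fell by 4.02 and 3.57 on the log2 scale (edgeR adjusted p = 2.17e-04 and 0.0125, and 0.104 for *Slco2a1* without the summed pools).

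**Figure D3:**
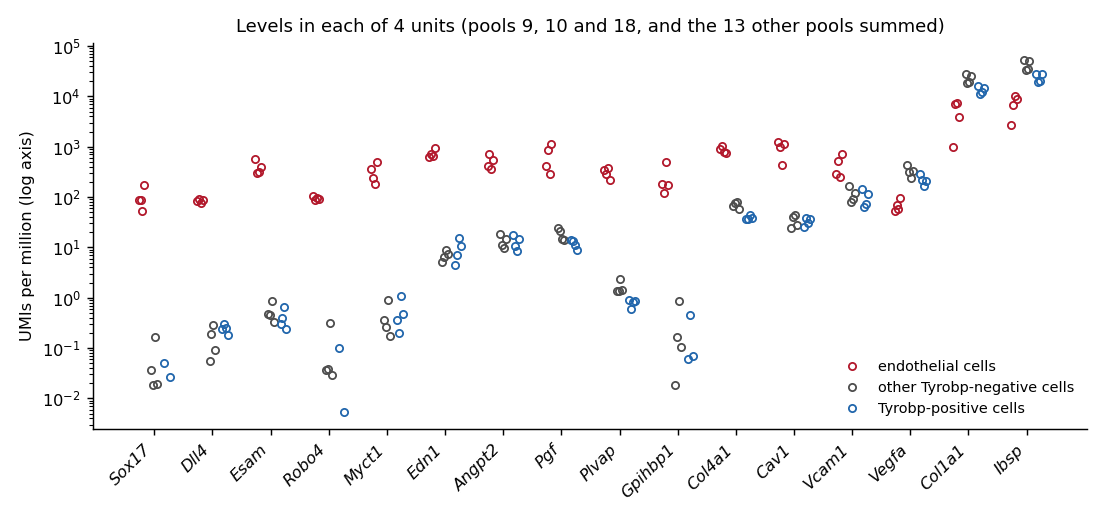
Levels of 16 genes in CPM (y axis, log scale) in each of 4 units (pools 9, 10 and 18, and the 13 other pools summed) for endothelial cells (red), other *Tyrobp*-negative cells (gray) and *Tyrobp*-positive cells (blue); a unit at 0 is not drawn. From *Sox17* to *Vcam1* all red points lie above the gray points of the gene, and for *Vegfa*, *Col1a1* and *Ibsp* all lie below.

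The gene with the largest rise under the rule for named genes was *Sox17*, a SOX factor of arterial endothelium. It entered the test only through the endothelial units, since the comparison cells held almost none. It was at 89.1 CPM in pool 9, 88.7 in pool 10, 53.4 in pool 18 and 171 in the other pools, against 0.0188 to 0.165 in the comparison cells, and 55 of 87 cells in 14 pools had a UMI (log2 fold change 11.67 ± 0.53, edgeR adjusted p = 1.26e-13). The others of the 20 largest rises, from 10.70 down to 8.23, were *Tmem252*, *Robo4*, *Fam167b*, *Gpihbp1*, *Sox7*, *Myct1*, *Tie1*, *Esam*, *Kcne3*, *Dll4*, *Upp1*, *Meox1*, *Afap1l1*, *Rasip1*, *Icam2*, *Mmrn2*, *Ptprb*, *Mecom* and *Bcl6b*. *Upp1*, a uridine phosphorylase and so a metabolic enzyme, was at 435, 217, 432 and 379 CPM against 0.252 to 2.95. 

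Transcription factors of the endothelium were higher in 17 of 28 tested cases and lower in 5 (all tested genes: 9.68% and 15.1%). Their median log2 fold change was 2.03. The most abundant was *Tcf4* at 776 ± 77.6 CPM (SD, n = 4 units) against 157 ± 31.8 (log2 fold change 2.27 ± 0.20), and *Ets1* (2.57 ± 0.21) and the hypoxia-inducible *Epas1* (1.48 ± 0.20) came next among those called higher. All 3 SoxF genes were higher, with *Sox17* at 11.67, *Sox7* at 10.06 and *Sox18* at 7.23. So were the ETS genes *Erg* (7.10), *Elk3* (2.33), *Fli1* (2.53) and *Ets2* (1.80). *Sox17*, *Sox7* and *Erg* were near 0 in every comparison unit. They entered the test only through the endothelial units and could hardly be called lower, which partly sets the count of 17. *Mef2c* fell by 2.23 and *Klf4*, a shear-stress factor that fibroblasts also express, by 1.06 on the log2 scale, while *Klf2* had a log2 fold change of 0.47 ± 0.22 that did not pass (edgeR adjusted p = 0.12). *Etv2*, the factor that starts endothelial fate in the embryo, had 0 UMIs in the 87 cells. This allows a level of up to 1.95 UMIs per 1000000 before scaling, and the comparison cells held *Etv2* at 0.123.

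ETS proteins bind a GGAA core. Promoter sequences are shown for 3 of these genes as examples with many, some and, in a shortened window, no such letters. They were chosen after the matches were counted. Of the 6 rule genes and the 20 genes with the largest rises, 14 had a RefSeq promoter (GRCm38.p6) in the table used; the bases before the first start that RefSeq or GENCODE M21 gives are printed 5′ to 3′ on the plus strand (for *Myct1* GENCODE M21 starts the gene further on, at 5593775), with GGAA and its reverse complement TTCC in capitals.
Emcn (chr3:137340828-137341066): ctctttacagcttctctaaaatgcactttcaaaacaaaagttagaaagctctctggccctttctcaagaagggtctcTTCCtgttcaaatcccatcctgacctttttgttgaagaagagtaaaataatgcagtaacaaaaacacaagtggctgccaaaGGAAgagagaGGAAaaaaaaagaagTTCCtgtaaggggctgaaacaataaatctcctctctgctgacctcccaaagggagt
Myct1 (chr10:5593478-5593727): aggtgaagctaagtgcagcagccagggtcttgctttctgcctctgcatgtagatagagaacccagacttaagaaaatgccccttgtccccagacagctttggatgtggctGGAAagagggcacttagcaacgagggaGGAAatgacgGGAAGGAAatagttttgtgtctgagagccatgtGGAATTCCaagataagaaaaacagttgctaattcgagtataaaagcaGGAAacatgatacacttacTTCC
Robo4 (chr9:37401722-37401896): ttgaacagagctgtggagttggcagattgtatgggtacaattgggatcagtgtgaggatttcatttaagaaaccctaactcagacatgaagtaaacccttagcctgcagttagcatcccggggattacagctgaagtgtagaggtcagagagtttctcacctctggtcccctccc
The *Emcn* window of 239 bases holds 4 matches on both strands together, and 30.2% of all 32851 promoters hold at least as many in a window of that length. The *Myct1* window of 250 bases holds 8, and 1.45% of all promoters hold at least as many. The *Robo4* window, cut to 175 bases by the earlier start, holds 0, and 85.9% of all promoters hold at least 1. The *Cldn5* window of 250 bases, not printed, also holds 0. It is the only entry without a match in 250 bases, so the uncut *Robo4* entry holds at least 1. Over all 20 promoter entries of the 14 genes, 19 (95%) hold at least 1 in 250 bases, with a median of 4, against 93.4% of all promoters, with a median of 3. A match of 4 letters is a description of the sequence and not a binding site.

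VEGF signaling genes were higher in 6 of 14 cases and lower in 3 (all tested genes: 9.68% and 15.1%). The VEGF receptors *Flt1* (VEGFR1) and *Flt4* (VEGFR3) rose by 6.19 ± 0.38 and 7.10 ± 0.54 on the log2 scale, and the semaphorin receptor *Plxnd1* by 3.63 ± 0.20. *Pgf*, placental growth factor, a ligand of *Flt1*, was at 409, 861, 285 and 1147 CPM in pools 9, 10 and 18 and the other pools, against 14.1 to 24.5 in the comparison cells (log2 fold change 4.97 ± 0.31, edgeR adjusted p = 3.71e-11). *Vegfa*, the main ligand of *Kdr*, was at 52.9, 69.0, 57.9 and 95.3 in the endothelial cells and at 242 to 432 in the comparison cells, so each endothelial unit was below each comparison unit (log2 fold change -2.29 ± 0.24). *Vegfc* and the co-receptor *Nrp2* fell as well, and *Nrp1* had a log2 fold change of -0.12 ± 0.23.

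*Angpt2*, made by sprouting endothelium, was at 415, 716, 356 and 532 CPM against 9.67 to 18.3 (log2 fold change 5.16 ± 0.25, edgeR adjusted p = 3.89e-13). *Angpt1*, the ligand made by perivascular cells, was at 2.79, 9.86, 22.3 and 11.1 against 33.2 to 50.9 (log2 fold change -2.01 ± 0.37, edgeR adjusted p = 2.42e-04). Of the 8 genes of the angiopoietin and TIE group, *Angpt2*, *Tie1*, *Tek* and *Angptl4* were higher and 4 lower (all tested genes: 9.68% and 15.1%). *Tie1* and *Tek* entered the test only through the endothelial units. *Angptl4*, a lipase inhibitor induced by hypoxia, had a log2 fold change of 1.73 ± 0.33 with overlapping units.

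Notch genes were higher in 7 of 16 cases and lower in 3 (all tested genes: 9.68% and 15.1%). The ligand *Dll4* was at 83.6, 92.0, 75.7 and 87.9 CPM against 0.0541 to 0.289 (log2 fold change 9.28 ± 0.40), and its SD over units of 6.96 CPM was, after the 6.22 CPM of *Robo4*, the smallest among the 20 largest rises. *Dll4* too entered the test only through the endothelial units. *Notch4*, the endothelial receptor, rose by 6.52 ± 0.34, *Notch1* by 2.10 ± 0.20, the glycosyltransferase *Mfng* by 7.61 ± 0.40 and the Notch target *Nrarp* by 5.15 ± 0.36. *Notch2* and *Notch3* fell by 1.69 and 1.47 on the log2 scale, *Notch3* with overlapping units and no longer passing under 6 of the alternatives (adjusted p = 0.0888 to 0.200). Among the HES and HEY targets, *Hes1* (-0.35 ± 0.21) and *Hey1* (0.18 ± 0.26) did not pass, and *Hey2* and *Heyl* had 0 UMIs. For *Heyl* this was at least 2.51-fold lower than in the comparison cells. That bound takes 3 counts over all members as the floor and uses counts before scaling.

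BMP and ALK1 genes were higher in 6 of 19 cases and lower in 7 (all tested genes: 9.68% and 15.1%). *Acvrl1* (the receptor ALK1) and its co-receptor *Eng* rose by 3.12 ± 0.26 and 3.16 ± 0.20, and the ligands *Bmp4* and *Bmp6* by 1.53 ± 0.23 and 2.80 ± 0.54. *Bmp2* and the receptor *Bmpr1a* fell by 1.15 and 2.72 on the log2 scale. Of the ID genes, which BMP signals induce, *Id1* rose (0.65 ± 0.20, adjusted p = 0.29 without the summed pools) and *Id2* and *Id3* fell.

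Genes of tip cells and sprouting were higher in 20 of 26 cases (9.68% of all tested genes) and lower in 1, *Unc5b*. Their median log2 fold change was 3.56, beside -0.17 over all genes. An endothelial cell had a UMI of a median of 17 of the 27 listed genes (range 4 to 25). For other lists the median was 6 of 22 arterial, 7 of 32 venous and sinusoidal and 5 of 15 capillary genes. The capillary list includes the rule gene *Emcn*, which had a UMI in 84 of the 87 cells. These numbers were not counted in the comparison cells, which also hold some listed genes, so vessel types cannot be ranked by them. *Col4a1* was at 880, 1042, 802 and 758 CPM against 56.6 to 80.9 (log2 fold change 3.59 ± 0.20). *Apln*, the ligand apelin of tip cells, was at 267, 273, 223 and 585 against 26.6 to 50.9 (2.91 ± 0.24), and its receptor *Aplnr*, a gene of stalk and venous cells, had 6 UMIs in 5 cells. *Pdgfb*, which recruits pericytes, was at 281, 256, 143 and 317 against 1.13 to 1.65 (7.41 ± 0.27). *Angpt2* was found in 75 of the 87 cells, *Pgf* in 71, *Apln* in 70 and *Esm1* in 51, and 62 cells had both *Angpt2* and *Apln*. *Esm1* rose by only 0.93 ± 0.29 with overlapping units (edgeR adjusted p = 0.022, 0.12 with DESeq2 and 0.44 without the summed pools), since the comparison cells held it at 81.8 to 158. *Adm* (0.55 ± 0.34), *Plaur* (0.03 ± 0.21), *Mmp14* (-0.44 ± 0.20), *Nid2* and *Insr* did not pass.

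Basement membrane genes were higher in 11 of 15 cases and lower in 3 (all tested genes: 9.68% and 15.1%). Their median log2 fold change was 1.46. Besides *Col4a1* and *Col4a2* (3.53 ± 0.20), *Col18a1*, the source of endostatin, rose by 3.92 ± 0.22, *Sparcl1* by 5.34 ± 0.36 and the laminin chain *Lama5* by 5.12 ± 0.48. The laminin chains *Lama4*, *Lamb1* and *Lamc1* and nidogen 1 rose by 1.19 to 1.86. *Bgn*, *Col8a1* and *Lamb2* were lower.

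Junction genes were higher in 9 of 17 cases and lower in 4 (all tested genes: 9.68% and 15.1%). *F11r* (JAM-A) rose by 7.42 ± 0.31, *Cgnl1* by 3.67 ± 0.30, and *Tjp1* (ZO-1) by 1.45 ± 0.21. Of the catenins, which link cadherins to the cell's interior, *Ctnna1* rose by 1.31 ± 0.21 and *Jup* (plakoglobin) by 2.41 ± 0.24, while *Ctnnb1* (0.05 ± 0.19) and *Ctnnd1* (-0.11 ± 0.20) did not pass. N-cadherin (*Cdh2*), connexin 43 (*Gja1*), *Jam2* and *Jam3* fell.

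Caveolae are membrane pits that are dense in endothelium. Their genes and transport genes were higher in 9 of 20 cases and lower in 4 (all tested genes: 9.68% and 15.1%). *Cav1* was at 1217, 973, 428 and 1135 CPM against 24.7 to 43.8 (log2 fold change 4.71 ± 0.31), and *Cav2*, *Cavin1*, *Cavin2* and *Cavin3* rose by 1.32 to 4.14. *Plvap*, which forms the diaphragms of fenestrae and caveolae, was at 343, 283, 370 and 217 against 1.37 to 2.39 (7.46 ± 0.25), and 60 of 87 cells had a UMI. *Gpihbp1*, which anchors lipoprotein lipase on capillaries, was uneven. It had a UMI in 38 cells of 10 pools and was at 181, 122, 490 and 170 CPM, with pool 18 highest, against 0.0180 to 0.845 (10.10 ± 0.37). Among transporters known from vessel barriers, *Abcb1a* was called higher (5.08 ± 0.79, edgeR adjusted p = 3.64e-05) with 15 UMIs in 10 cells and overlapping units. *Abcg2* had 68 UMIs in 33 cells and was not called (0.62 ± 0.25), and *Mfsd2a* and *Slco2a1* had 1 UMI each.

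Arterial genes and venous or sinusoidal genes were looked at next. Of the 17 tested arterial genes, 7 were higher and 5 lower (all tested genes: 9.68% and 15.1%). Beside *Sox17* and *Dll4*, *Efnb2*, the arterial ephrin, rose by 4.31 ± 0.21 and had a UMI in 67 cells, *Edn1* (endothelin 1) was at 613, 703, 659 and 926 CPM against 5.10 to 8.93 (6.65 ± 0.24), and *Cxcr4* rose by 3.72 ± 0.30. The arterial connexins were sparse, with *Gja5* in 11 cells and *Gja4* in 9, and *Bmx* was in 2 cells. *Alpl*, *Mgp*, *Fbln5*, *Vegfc* and *Unc5b*, which stromal cells also make, were the 5 that fell. Against the *Tyrobp*-positive cells 7 arterial genes were higher and 3 lower of 15 tested (all tested genes: 10.4% and 16.4%). Of the 24 tested venous and sinusoidal genes, 10 were higher and 4 lower (16.7%, near the 15.1% of all tested genes). Against the *Tyrobp*-positive cells 8 of the 24 were higher and 10 lower (all tested genes: 10.4% and 16.4%), with a median log2 fold change of -0.12. *Ephb4*, the venous partner of *Efnb2*, rose by 2.28 ± 0.34, *Stab1* by 2.71 ± 0.36, *Lyve1* by 5.79 ± 0.57 and *Vcam1* by 1.85 ± 0.26. *Stab1* and *Lyve1* are genes of macrophages too, and in the *Tyrobp*-positive cells *Stab1* was at 107 ± 18.3 CPM against 34.9 ± 13.6 in the endothelial cells. *Stab2*, a defining gene of sinusoids, had 11 UMIs in 4 cells, *Selp* 31 UMIs in 6 cells (21 of them in 1 cell) and *Vwf* 6 UMIs in 5 cells of 2 pools, and *Ackr1*, a gene of venules, had 0. Most cells held genes of both sets. *Sox17*, *Dll4* or *Efnb2* had a UMI in 78 cells, and *Plvap*, *Ephb4*, *Stab1* or *Flt4* in 73. Of all members, 69 had both and 5 had neither. With so many cells positive for each set, most would hold both even if the sets were detected independently. The genes used were better detected than *Gja5*, *Gja4*, *Stab2*, *Selp* or *Vwf*, and the 12 members with a high stromal share are counted in. The count thus does not show a mixed arterial and venous identity.

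Lymphatic genes gave 2 higher and 2 lower of 6 tested (all tested genes: 9.68% and 15.1%). Against the *Tyrobp*-positive cells 1 was higher and 3 were lower (all tested genes: 10.4% and 16.4%). The 2 that rose, *Flt4* and *Lyve1*, are also sinusoidal. *Prox1*, the factor that defines lymphatic endothelium, had 3 UMIs in 3 cells, and *Reln* and *Ccl21a* had 0. Of the capillary genes 6 of 11 were higher and 3 lower (all tested genes: 9.68% and 15.1%). Against the *Tyrobp*-positive cells 4 of 9 capillary genes were higher and 3 lower (all tested genes: 10.4% and 16.4%). *Fabp4*, a fatty acid carrier, was at 950, 1028, 1715 and 1667 CPM (log2 fold change 1.37 ± 0.20), and *Kit* rose by 1.65 ± 0.25 with overlapping units, while *Car4* and *Aqp7* had 0 UMIs and *Btnl9* had 1.

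Genes of coagulation and vascular tone were higher in 13 of 22 cases and lower in 2 (all tested genes: 9.68% and 15.1%). Endothelin 1 and its converting enzyme *Ece1* (1.61 ± 0.20), the endothelial nitric oxide synthase *Nos3* (4.76 ± 0.38), the protein C receptor *Procr* (4.88 ± 0.32), the adrenomedullin receptor parts *Calcrl* and *Ramp2* (4.41 ± 0.44 and 5.62 ± 0.31) and *Ace* (6.45 ± 0.55) rose. The prostacyclin synthase *Ptgis* fell by 2.91, and thrombomodulin (*Thbd*, 1.07 ± 0.45) did not pass. 

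Of 8 tested genes for leukocyte adhesion 7 were higher (9.68% of all tested genes), and *Cd47* was not called. *Vcam1* was at 281, 526, 254 and 711 CPM against 78.3 to 166. *Icam1* was at 94.7, 171, 8.91 and 60.7 against 5.36 to 15.3, so pool 18 overlapped the comparison cells (log2 fold change 2.95 ± 0.33). The chemokine *Ccl2* rose by 2.77 ± 0.31, with 270 of 918 UMIs from 1 cell. Against the *Tyrobp*-positive cells 4 of the 8 genes were higher and 1 was lower (*Cxcl1*), beside 10.4% and 16.4% of all tested genes. *Ccl2* (0.15 ± 0.34) and *Icam1* (-0.25 ± 0.29) were not called against them. E-selectin (*Sele*) had 17 UMIs in 9 cells.

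Of 34 tested angiocrine and niche genes, through which endothelium signals to marrow cells, 10 were higher and 14 lower (all genes: 9.68% and 15.1%). *Igfbp3* was at 1184, 378, 383 and 314 CPM against 39.9 to 91.5 (3.02 ± 0.23), with 151 of 880 UMIs from 1 cell, and *Igfbp7* rose by 1.43 ± 0.20. *Cxcl12*, a retention signal for hematopoietic stem cells, was at 460, 670, 722 and 977 in the endothelial cells and at 982 to 1388 in the comparison cells (-0.83 ± 0.20, adjusted p = 0.054 by library size alone). In the *Tyrobp*-positive cells it was at 399 to 855, and the log2 fold change against them was 0.31 ± 0.24 (edgeR adjusted p = 0.37). *Kitl*, the KIT ligand, was at 82.1 to 127 against 126 to 181 (-0.57 ± 0.20, edgeR adjusted p = 0.0445, and 0.400 by library size alone). 

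Genes of the major histocompatibility complex and the Ly6 family were higher in 4 of 21 cases and lower in 12 (all genes: 9.68% and 15.1%). The class I genes *B2m*, *H2-D1* and *H2-K1*, which show peptides to T cells, fell by 1.18, 1.42 and 1.46 on the log2 scale; *H2-K1* was at 348, 542, 570 and 543 CPM against 1072 to 1512. Class I genes share sequence, so reads may be split between copies. *Ly6e*, *Bst2*, *Ly6a* (Sca-1) and *Ly6c1* rose by 1.01 to 1.98, *Bst2* with an adjusted p of 0.086 without the summed pools.

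**Figure D4:**
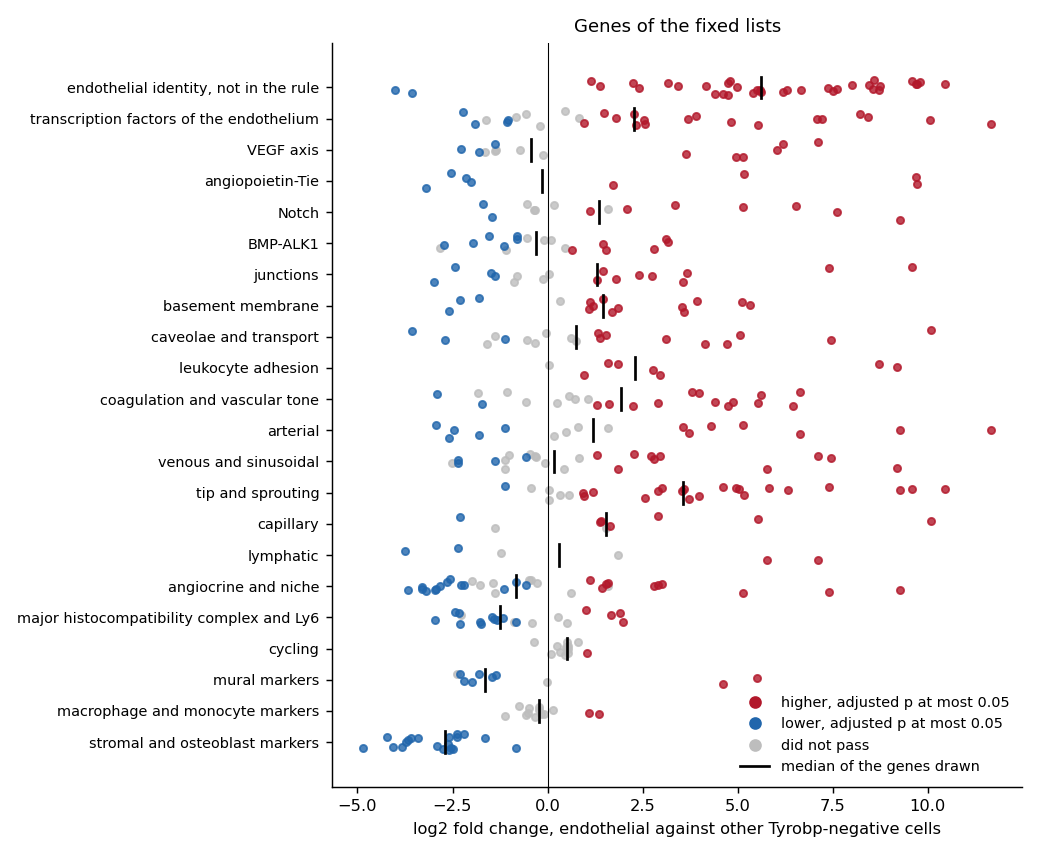
log2 fold change of each tested gene with a UMI in the endothelial cells (x axis), endothelial against other *Tyrobp*-negative cells, by fixed gene list (y axis); red and blue points passed the edgeR test, gray did not, and the black bar is the median of the points drawn. Identity genes reach from -4.02 to 10.45, and all 20 stromal and osteoblast markers are below 0.

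Markers of other cell types were measured in the same sums. The 20 stromal and osteoblast markers were all lower than in the other *Tyrobp*-negative cells (median log2 fold change -2.69), and 18 were lower than in the *Tyrobp*-positive cells, but none was at 0. Over all tested genes 15.1% and 16.4% were lower in these comparisons. The *Tyrobp*-positive group, cells with at least 1 *Tyrobp* UMI, was mixed: 41.9% had a *Ptprc* UMI and 49.5% a *Csf1r* UMI. In pool 13 the markers took a median of 9.86% of their UMIs, against 10.3% in the other *Tyrobp*-negative cells. A fall against this group is thus not a fall against leukocytes alone. *Col1a1* was at 994, 7205, 7514 and 3954 CPM in the endothelial cells, at 18812 to 27506 in the other *Tyrobp*-negative cells and at 11152 to 15938 in the *Tyrobp*-positive cells, of which 96.3% had a *Col1a1* UMI. Summed over the list, the range was 8268 to 33694 in the endothelial units, 96496 to 142734 in the other *Tyrobp*-negative units and 58145 to 82097 in the *Tyrobp*-positive units. In single cells these 20 genes took a median of 0.682% of the UMIs of an endothelial cell, 8.41% of those of another *Tyrobp*-negative cell and 1.15% of those of a *Tyrobp*-positive cell.

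Among the members, 12 cells of 5 pools lay above the median of the other *Tyrobp*-negative cells of their pool in stromal share, with 6.40 to 24.6% of their UMIs, and 75 lay at or below it, with 0.220 to 5.89%. The 12 had a median of 3 rule genes and 8.5 of the 37 identity genes, against 5 and 24 in the 75. All 5 members that a doublet caller marked were among the 12, and 5 of the 12 were in pool 18. With only the 64 members at or below the median stromal share of the *Tyrobp*-positive cells of their pool, 1465 genes were higher and 2873 lower, and 95.8% of the 1295 genes higher before were among them.

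**Figure D5:**
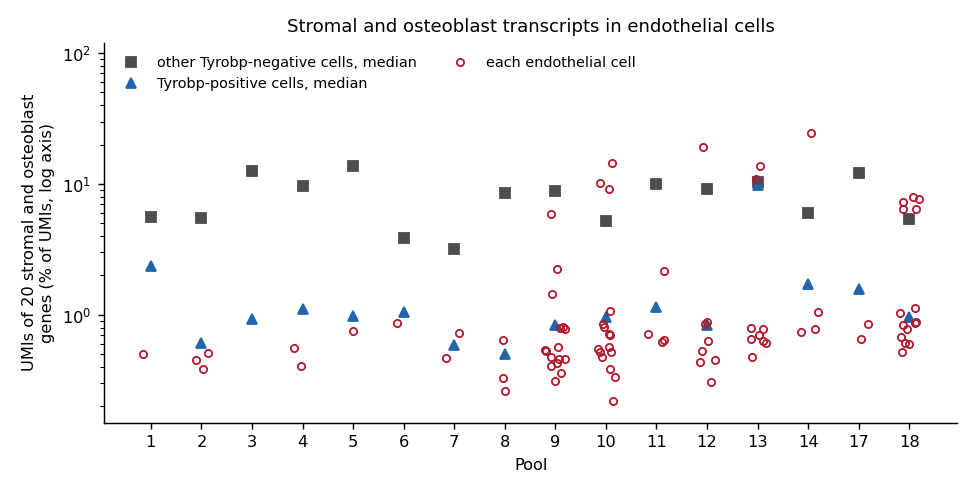
Share of UMIs from 20 stromal and osteoblast genes (y axis, percent, log scale) in each endothelial cell (circles) by pool (x axis), with the medians of the other *Tyrobp*-negative cells (squares) and the *Tyrobp*-positive cells (triangles) of the pool. Most endothelial cells lie at or under 1%, and those above the squares are in pools 10, 12, 13, 14 and 18.

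Leukocyte markers were at low levels. Of 13 macrophage and monocyte markers 2 (15.4%, beside 9.68% of all tested genes) passed as higher. These were *Fcer1g* (1.34 ± 0.37, adjusted p = 0.089 without pool 9) and *Cd14* (1.09 ± 0.33, adjusted p = 0.82 in members without a *Tyrobp* UMI). All 13 were lower than in the *Tyrobp*-positive cells. Members were chosen without *Csf1r* and that group by *Tyrobp*, both myeloid genes, so this fall was largely set by the choice of cells. The other *Tyrobp*-negative cells hold no *Tyrobp* UMI by definition while 13 members do, so the 2 calls of higher markers are not on equal terms. The sum of the 13 markers was 189 to 788 CPM in the endothelial units, 203 to 373 in the other *Tyrobp*-negative units and 8577 to 11665 in the *Tyrobp*-positive units. Of 6 pan-leukocyte markers 0 were higher and 1 was lower (*Cd52*), beside 9.68% and 15.1% of all tested genes, and *Ptprc* (CD45) had 3 UMIs in 3 cells. The granulocyte genes *S100a8* and *S100a9* were at 387 and 379 CPM in pool 18 and at 0 to 8.66 in the other units, and in the comparison cells *S100a8* was also highest in pool 18, at 225. Of the 13 members with a *Tyrobp* UMI, 10 had 1 UMI, and leaving them out gave 1421 higher and 2299 lower genes.

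Hematopoietic stem cell markers were higher in 5 of 7 cases, *Cd34*, *Procr*, *Kit*, *Mecom* and *Gata2*, and lower in 2 (*Meis1* and *Hoxa9*), while *Gata1* had 0 UMIs and *Hlf* and *Myb* 1 each. Over all tested genes 9.68% were higher and 15.1% lower. Megakaryocyte markers had 0 UMIs for 6 of 8 genes. Of the 11 mural markers 10 were tested. Of these, 6 were lower (15.1% of all tested genes). *Mcam* and *Kcnj8* were higher (4.61 ± 0.21 and 5.52 ± 0.58, beside 9.68% of all tested genes higher), while *Rgs5*, not called without the replicate block (adjusted p = 0.123), had 15 UMIs in 3 cells and *Myh11* 1. T cell markers had 0 UMIs for 5 of 7 genes, and none of the 3 tested passed. Glial markers had 0 UMIs for 4 of 8, with 1 of 4 tested lower (*S100b*), erythroid markers had 0 UMIs for all 6, and none of the 8 granulocyte markers passed. Among 7 adipogenic markers *Fabp4* was higher and *Adipoq*, *Lpl* and *Cebpa* were lower (all tested genes: 9.68% and 15.1%).

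The 10 largest falls were *Iglc2*, *Ighm*, *Jchain*, *Ighg3*, *Igkc*, *Cfd*, *Iglc1*, *Dcn*, *H19* and *Rerg*, from -7.40 to -4.69. Of these, 6 are immunoglobulin chains or the J chain that joins them. *Igkc* was at 11.1, 42.7, 53.4 and 19.8 CPM in the endothelial units and at 793 to 3814 in the comparison units. Of 5 tested B cell markers 3 were lower (15.1% of all tested genes). *Cd79a* had a UMI in 1.01% and *Jchain* in 3.33% of the comparison cells, and immunoglobulin genes share sequence. *Ighg3* and *Iglc1* overlapped between the groups and no longer passed without the replicate block (adjusted p = 0.15 and 0.21). *Dcn*, decorin, was at 0 to 4.45 CPM against 36.2 to 85.6, and *Cfd*, an adipokine, at 0 to 3.71 against 21.8 to 230.1.

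Of 12 cycling genes 1 (8.33%) was called higher, near the 9.68% of all tested genes. It was *Hmgb2* (1.05 ± 0.26, edgeR adjusted p = 0.0044, and 0.063 without pool 9), and the median log2 fold change of the 12 was 0.50. With each cell thinned to 2000 UMIs, which left out 2 endothelial and 12114 other cells, 5 of 15 endothelial cells of pool 9 had at least 2 UMIs of these 12 genes, 1 of 15 in pool 10, 2 of 15 in pool 18 and 4 of 40 in the other pools. The mean share was 15.8% ± 12.0 (SD, n = 4 units), against 10.4% ± 1.46 in the other *Tyrobp*-negative cells. The difference was 5.47 percentage points (exact permutation test of the paired units, two-sided p = 0.75, where the smallest p that 4 units allow is 0.125), and without pool 9 it was -0.77 points. Unthinned, the shares were 75.4% and 39.8%, with the endothelial cells deeper. Of the 196 UMIs of *Ube2c*, a gene of mitosis, 135 were in pool 9.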

How the data were processed

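Per the labels and the paper's methods, the authors sequenced 10x 3' v2 libraries of 16 pools in 2 runs, counted UMIs with Cell Ranger 5.0.0 (GRCm38/mm10) and deposited raw UMI counts of each gene and barcode; the annotation release is not given in the sources used here. Barcodes of the first run with 400 to 6200 genes and at most 10% mitochondrial UMIs were kept. The deposited counts were summed per unit and group (pools with at least 10 members alone, 13 others together) and tested with edgeR 4.0.16 in R 4.3.3 (TMM, filterByExpr, quasi-likelihood, unit as a block, Benjamini-Hochberg over all genes tested; rule genes, *Csf1r* and *Tyrobp* left out). CPM are counts per 1000000 after TMM scaling. Both groups of a unit come from the same pool or pools, which is where the pairing comes from. The labels do not tie cells to mice, so the endothelial cells of a pool may come from fewer of its mice. A difference between mice can then not be told apart from one between cell types. Deviations of same units correlated at -0.16 to 0.36 (median 0.28) and of different units at a median of -0.08. P-values measure the spread between 4 units, 1 of them a sum. Doublets were scored against simulated doublets in 30 components and called at 0.8% per 1000 barcodes; called barcodes were kept here.

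On simulated data, edgeR recovered 28% of 200 genes changed by 1 and 99% of those changed by 2 on the log2 scale for the main comparison (13389 genes). The changed genes were drawn only from those well detected in the comparison cells. All genes had the same spread and units did not differ, so sparse or uneven genes were not covered. Intervals and limits (3 counts for a 0) cover counting error only. The members and the 32 gene lists were chosen with earlier results of these data known. Named genes were the rule genes, the 20 largest rises and 10 largest falls (same sign in all units, at least 50 CPM), and genes of the lists, most abundant first; others are said to be chosen later. Alternatives covered scaling, DESeq2 1.42.0, filters, member rules, doublets, depth, units and the second run. Gene coordinates are from GENCODE M21 (GRCm38).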

Additional observations from a re-analysis of the deposited data

Results flagged for a closer look

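Outside the genes of the rule, *Csf1r* and *Tyrobp*, which took part in choosing the cells, the 30 genes named for their size of difference were checked for a unit far from the other 3 (Dixon's test), which chance flags in about 1 of 20 groups of 4. Of these, 5 were flagged. In *Gpihbp1* and *Kcne3* the flagged unit was the endothelial cells of pool 18. *Gpihbp1* was at 490 CPM there (110 of 349 UMIs, in 9 of 15 cells) and *Kcne3* at 272 (61 of 140 UMIs, in 8 of 15 cells), both higher than in the other units. Of all *Kcne3* UMIs, 33 were from 1 cell and 72 from 3 cells. Flags in these genes alone are about as many as a rate of 1 in 20 gives, so they do not show that pool 18 differs. In pool 18, 5 of 15 members lay above the median stromal share of their pool's other *Tyrobp*-negative cells, and the granulocyte gene *S100a8* was at 387 CPM. Their part in the values of *Gpihbp1* and *Kcne3* was not tested. The other 3 were immunoglobulin genes found in the summed pools only, *Iglc2* at 1.24, *Ighg3* at 2.48 and *Iglc1* at 4.95 CPM, from 1, 1 and 2 cells. With 3 units at 0, any UMI in the remaining unit is flagged, so the rate of 1 in 20 does not hold for these 3 genes and their flags are no sign of a unit that stands apart.

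Outside the limits on genes and mitochondrial UMIs, 18 barcodes met the rule on rule genes and *Csf1r*. Of these, 9 had more than 6200 genes, 8 had more than 10% mitochondrial UMIs and 1 had fewer than 400 genes. They had a median of 17.5 of the 37 further endothelial genes (range 3 to 34) and entered no comparison.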

How the results depend on the processing

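The number of endothelial cells was 60 when cells were thinned to 2000 UMIs before the rule was applied, 64 with only members low in stromal transcripts, and between 74 and 92 in the second run, with at least 4 rule genes, without members with *Tyrobp*, with ribosomal limits, without doublet calls and without pool 13. The mean share per pool stayed within its SD. Against other *Tyrobp*-negative cells, scaling by library size alone gave 2222 higher and 1293 lower genes; leaving out pool 9, 10, 18 or the summed pools in turn gave 759 to 1549 higher and 1349 to 2208 lower, the lowest without the summed pools, where 58.0% of the 1295 higher genes were still called. Against *Tyrobp*-positive cells, library size alone gave 1848 higher genes and 54.5% of the calls as higher in place of 38.7%, and leaving out each unit gave 640 to 1352 higher and 1085 to 2129 lower, the lowest again without the summed pools. Without the replicate block the counts were 1537 higher and 2157 lower (1492 and 2073 against *Tyrobp*-positive cells), and with DESeq2 they were 1195 and 1499. Without the block 10 of 249 called genes of the lists and the largest changes no longer passed, and no count moved by over 1.5 times. Of 4697 values of these genes under all alternatives 104 no longer passed and 0 changed direction. The difference in cycling cells was between -0.77 and 8.08 percentage points when each unit was left out. Units of at least 20 members could not be fitted, since no pool holds that many, and were not run. Comparison cells drawn to 50 per member, members low in stromal transcripts, library size alone and the values without pool 13 were chosen after seeing the data. On simulated data 28% of changes of 1 on the log2 scale were found among genes well detected in the comparison cells. Smaller changes, and changes of sparse genes, may be missed.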

Other observations

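Genes outside the fixed lists were looked at after their values were seen. *Ctla2a*, which encodes a small protein related to the propeptide of cathepsins, was the 7th most abundant gene of the endothelial cells by summed UMIs (8591 UMIs) and had a UMI in all 87. It was at 6329, 2931, 4133 and 5569 CPM in pools 9, 10 and 18 and the summed pools, against 32.2 to 55.7 in the other *Tyrobp*-negative cells (*Ctla2b*, a close copy, may share reads; log2 fold change of *Ctla2a* 6.65 ± 0.27, edgeR adjusted p = 1.25e-14). *Tmsb4x*, the actin-binding thymosin beta 4, was the most abundant, and rose by 2.51 on the log2 scale. The bone matrix genes *Ibsp* (12374 UMIs, in all 87 cells) and *Col1a1* (7431 UMIs) ranked 3 and 14, both lower than in the comparison cells.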
